A study of Mus musculus with 6 samples.

Results

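Purinergic signalling was described through 10 genes, of 55401 in the deposited table, in mouse bone marrow-derived macrophages that had been stretched. The genes were chosen by symbol from a list of receptors for ATP, ADP, UDP, UDP-sugars and adenosine and of enzymes that degrade extracellular ATP, and all 10 symbols were found by their Ensembl identifiers. They are the ATP-gated channels P2rx4 and P2rx7, the nucleotide receptors P2ry2, P2ry6, P2ry12, P2ry13 and P2ry14, the ectonucleotidase Entpd1, and the adenosine receptors Adora2a and Adora2b. The rule uses no value measured in these samples, although earlier results of these data were known when the list was chosen.

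The macrophages were of the C57BL/6 strain, and both groups were exposed to stretch for 4 h. Of the libraries, 3 came from cells transfected with a non-targeting control siRNA (siNC) and 3 from cells given an siRNA to Piezo1 (siPiezo1). Piezo1 encodes a cation channel opened by membrane tension. The study asked how Piezo1 promotes macrophage proliferation under mechanical stimuli. Unstretched cells were not analysed here, so the comparison is of siPiezo1 with siNC under stretch and does not measure a response to stretch. Nothing in the labels says that the libraries of a group came from separate cultures or animals, so each p-value reflects only how these libraries vary, which may be technical.

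Stretched cells release ATP, and the genes described here encode receptors for nucleotides and adenosine and an enzyme that degrades ATP. ATP opens P2X channels, of which P2rx7 needs high ATP and leads to activation of the NLRP3 inflammasome in macrophages, and it also binds G protein-coupled P2Y receptors. Entpd1 (CD39) on the cell surface cuts ATP and ADP to AMP, Nt5e (CD73) cuts AMP to adenosine, and adenosine raises cyclic AMP in macrophages through Adora2a and Adora2b, which restrains inflammatory responses.

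The libraries held 61086684 to 75052745 estimated counts, or 16.3 to 20.1 M fragments at 3.67 to 3.74 counts a fragment. Levels below are in CPM, each gene's count per 1000000 counts of the library after TMM scaling. Piezo1 stood at 180, 285 and 189 CPM in siNC 1, 2 and 3, against 111, 109 and 113 CPM in siPiezo1, and the groups did not overlap. Its log2 fold change of -0.97 ± 0.18 (SE) did not pass edgeR (adjusted p = 0.744), passed DESeq2 (adjusted p = 0.000982), and passed edgeR without siNC 2 (adjusted p = 0.00245). One library, siNC 2, stood apart from the others. The summed level of 12 neutrophil markers was 3446 CPM there, against 666 to 713 CPM in the other siNC libraries and 640 to 671 CPM in siPiezo1. S100a8 and S100a9 held 854 and 1044 CPM of the siNC 2 sum. Of the 12 markers 11 were highest in siNC 2, among them Ly6g at only 0.371 CPM, and Retnlg was lowest there, at 0 CPM. The summed level of 8 platelet and megakaryocyte markers was 336 CPM in siNC 2, against 58.8 to 60.3 CPM in the other siNC libraries and 65.7 to 72.9 CPM in siPiezo1. The summed level of 10 macrophage identity genes and Piezo1 was 29033 CPM in siNC 2, against 35651 to 38443 CPM in the other 5 libraries. Lyz2 alone made up 20623 CPM of the siNC 2 sum. Of these 11 genes, 8 were lowest in siNC 2 and 2, Piezo1 and Cd14, were highest there. Of 10 T and B cell markers, 5 (Cd3e, Cd3d, Cd3g, Cd8a and Trac) were at 0 counts in all 6 libraries, and 2 could be tested. Of these, Cd79b stood at 1.58 to 3.45 CPM. Cd4 stood at 16.5, 1.83 and 13.2 CPM in siNC 1, 2 and 3, against 4.7, 5.39 and 1.88 CPM in siPiezo1. Without siNC 2 its log2 fold change was -1.90 ± 0.45 (SE, adjusted p = 0.144 with edgeR and 0.000389 with DESeq2). In bulk RNA, fewer cells of a type and less RNA per cell cannot be told apart.

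With all 6 libraries, 0 of the 10 genes passed edgeR's quasi-likelihood test over all genes (adjusted p under 0.05), where 0.00627% of the 15959 genes tested did. DESeq2 and limma-voom also called 0 of them. At an unadjusted p under 0.05 edgeR gave 1 of the 10, Entpd1, against 4.93% of all genes. The groups overlapped for all 10 genes, while 11.9% of all genes did not overlap. Log2 fold changes of siPiezo1 against siNC were below 0 for 7 and above 0 for 3, with a median of -0.09, and over all genes 52% were below 0, with a median of -0.01. Without siNC 2, edgeR called 1 of the 10, Adora2a, higher in siPiezo1, against 1.09% of 16442 genes called. At an unadjusted p under 0.05 there were then 5 of 10, against 14.3% of all genes, and 7 of 10 did not overlap between the groups, against 32.8%. The median log2 fold change of the 10 was then -0.25, again with 7 below 0, and over all genes 49.5% were below 0, with a median of 0.004. The siNC 2 library was the highest or lowest of the 6 for 5 of the 10 genes, and for 55.9% of all genes. None of the 10 changed the sign of its log2 fold change when siNC 2 was left out, where 23.6% of 15945 genes did.

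**Figure D1:**
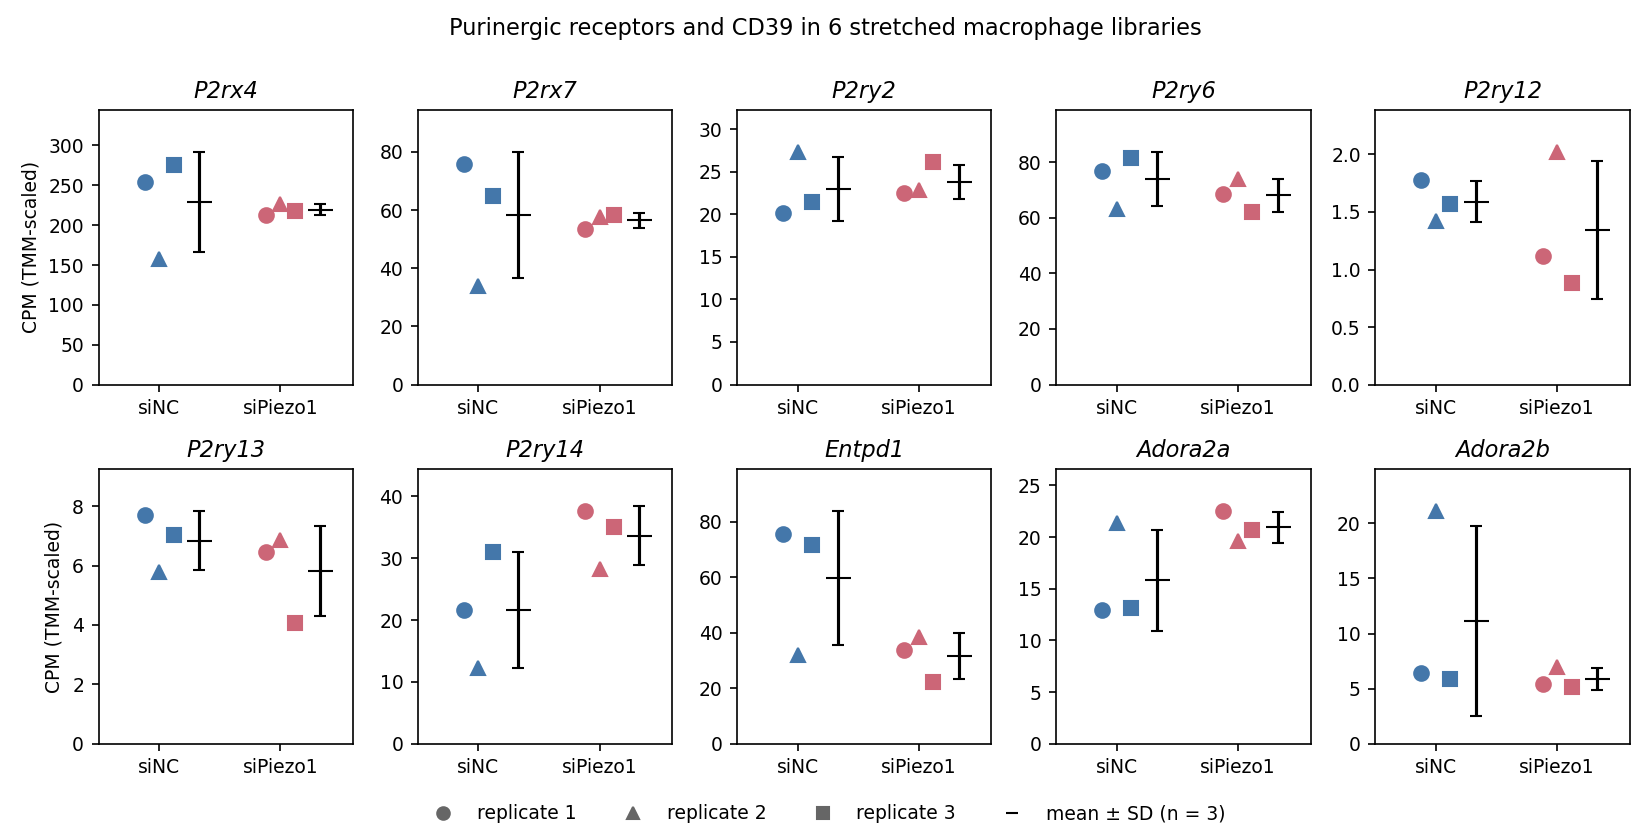
TMM-scaled CPM (vertical axes, each starting at 0) of the 10 genes in the 3 siNC and 3 siPiezo1 libraries. Symbols mark the replicate number, and bars give the mean ± SD (n = 3). The groups overlap in every panel, and siNC 2 (triangle) lies outside the range of siNC 1 and 3 in every siNC column, farthest in ratio to their mean for Adora2b.

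Entpd1, which encodes CD39, had the lowest unadjusted p of the 10 with edgeR and DESeq2 on all 6 libraries; with limma-voom that was P2ry14, and with edgeR without siNC 2 it was Adora2a. Its level was 75.4, 31.9 and 71.5 CPM in siNC 1, 2 and 3, against 33.8, 38.5 and 22.3 CPM in siPiezo1. The siNC 1 and 3 libraries lay above all siPiezo1 libraries, and siNC 2 lay among them. Mean Entpd1 was 59.6 ± 24.1 CPM with siNC and 31.5 ± 8.29 CPM with siPiezo1 (SD, n = 3), the second being 52.9% of the first. This log2 fold change of -0.92 ± 0.35 (SE) did not pass edgeR's quasi-likelihood test (adjusted p = 0.978, unadjusted p = 0.0364). Without siNC 2 the log2 fold change was -1.22 ± 0.24 (SE), and siPiezo1 held 42.9% of the mean of the other controls. The tools then differed on the call. The adjusted p was 0.108 with edgeR, 0.0493 with limma-voom and 2.33e-06 with DESeq2, which called 1, 1 and 4 of the 10 genes and 1.09%, 0.712% and 6.51% of all genes. The sign of the Entpd1 difference was negative under all 17 alternatives run, which gave log2 fold changes from -1.25 to -0.72. A constant sign was not particular to Entpd1. P2ry6, P2ry12, P2ry13, P2ry14, Adora2a and Adora2b also kept their signs under all 17, and the alternatives reuse the same libraries. Adgre1, Fcgr1, Mertk, Cd68 and Spi1, from the macrophage list, also had siNC 1 and 3 above all siPiezo1 libraries. Unlike for Entpd1, siNC 2 was the lowest of the 6 libraries for these genes. Without siNC 2, 8 of the 11 genes of that list, Piezo1 included, did not overlap between the groups, against 32.8% of all genes. Of these 8, Lyz2 and Cd14 were higher in siPiezo1. Without siNC 2, edgeR called 3 of the 11 genes in the list of macrophage identity genes and Piezo1 lower, where it called 0.45% of all genes lower. Piezo1, the target of the siRNA, was among them, and its call says nothing about macrophage identity. The others were Adgre1, which encodes F4/80 (-0.31 ± 0.05, SE, adjusted p = 0.0375), and the Fc receptor gene Fcgr1 (-0.46 ± 0.07, SE, adjusted p = 0.0283). Mertk, a receptor for the uptake of dead cells, had -0.59 ± 0.13 (SE, adjusted p = 0.0853 with edgeR). Csf1r and Cd68 had -0.11 each, Spi1 -0.08 and Ptprc -0.05. Above 0 were 3 of the 11 genes. These were Lyz2, which makes up most of the summed level, with 0.09, Cd14 with 0.24 ± 0.10 and Itgam with 0.47 ± 1.05 (SE). The part of these genes' difference in those of Entpd1, P2rx4 and P2rx7 was not tested.

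The upstream sequences of Entpd1, P2rx4 and P2rx7 are shown because these were the 3 members that DESeq2 called lower without siNC 2, where it called 2.84% of all genes lower. In siNC 2 all 3 were also below siNC 1 and 3, as were P2ry6, P2ry12, P2ry13 and P2ry14. RefSeq sequences (GRCm38.p6, a build other than the one named in the submitters' processing notes) were found for 8 of the 10 genes. Each is the 250 bases before an annotated start, on the plus strand and 5′ to 3′. Entpd1 and P2rx7 have 2 annotated starts each, and gene counts do not tell which one was used; of P2rx7 the window with a match is shown. Capitals mark matches on either strand to the cyclic AMP response element half-site TGACG, the AP-1 site TGANTCA or the PU.1 core GAGGAAG; the hypoxia response element core ACGTG was also searched and had no match in these 4 windows. No 2 motifs overlapped there.
Entpd1, first start, chr19:40612116-40612365: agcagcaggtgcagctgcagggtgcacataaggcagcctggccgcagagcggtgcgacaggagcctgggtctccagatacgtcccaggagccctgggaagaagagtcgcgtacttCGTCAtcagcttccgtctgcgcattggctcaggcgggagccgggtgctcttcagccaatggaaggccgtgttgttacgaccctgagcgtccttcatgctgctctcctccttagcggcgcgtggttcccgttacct
Entpd1, second start, chr19:40659520-40659769: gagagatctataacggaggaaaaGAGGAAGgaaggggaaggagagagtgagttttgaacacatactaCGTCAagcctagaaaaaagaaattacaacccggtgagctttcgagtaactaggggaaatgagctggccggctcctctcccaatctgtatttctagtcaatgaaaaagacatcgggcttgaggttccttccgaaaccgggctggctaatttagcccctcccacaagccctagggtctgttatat
P2rx4, chr5:122707294-122707543: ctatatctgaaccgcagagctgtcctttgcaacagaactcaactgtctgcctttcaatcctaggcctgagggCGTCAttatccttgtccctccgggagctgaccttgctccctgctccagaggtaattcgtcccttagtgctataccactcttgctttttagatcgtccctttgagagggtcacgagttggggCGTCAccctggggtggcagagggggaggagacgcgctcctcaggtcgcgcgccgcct
P2rx7, chr5:122643677-122643926: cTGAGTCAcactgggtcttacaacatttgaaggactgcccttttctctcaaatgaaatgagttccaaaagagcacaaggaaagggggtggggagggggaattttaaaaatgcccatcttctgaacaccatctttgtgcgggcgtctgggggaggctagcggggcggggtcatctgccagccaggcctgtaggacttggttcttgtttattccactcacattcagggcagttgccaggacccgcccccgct

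Both Entpd1 windows held the half-site once, beginning 135 and 183 bases before the start, and the second also held the PU.1 core, 227 bases before it. The P2rx4 window held the half-site at 178 and 57 bases before the start, and the P2rx7 window the AP-1 site at 249 bases. The other P2rx7 window, not shown, held no match to any motif searched. The AP-1 site and the PU.1 core were not particular to the genes shown. Windows of P2ry14 held both, and that of P2ry13 held the PU.1 core. Of 32851 windows of the same length, 17.8% held the half-site, 6.75% the AP-1 site, 10.6% the PU.1 core and 16.6% the hypoxia core. A match describes these letters only; binding was not measured.

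Nt5e, the enzyme that follows Entpd1 in the path to adenosine, was close to undetected outside siNC 2. Its level was 0.51, 11 and 0.837 CPM in siNC 1, 2 and 3, against 0.461, 0.757 and 0.688 CPM in siPiezo1. Its log2 fold change of -2.69 ± 1.16 (SE) rested on 1 library, and without siNC 2 it was -0.09 ± 0.58 (SE). Ada, which converts adenosine to inosine, stood at 3.56, 5.49 and 3.72 CPM in siNC, against 1.59, 2.23 and 1.85 CPM in siPiezo1. The groups did not overlap for Ada, at a log2 difference of -1.17 ± 0.28 (SE), and siNC 2 lay on the same side as the other controls. Ada did not pass edgeR (adjusted p = 0.857, and 0.168 without siNC 2) and passed DESeq2 with all 6 libraries (adjusted p = 0.0341), where 0.551% of all genes did.

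The Gs-coupled adenosine receptors differed from each other in which libraries were high. Adora2a stood at 12.9, 21.4 and 13.1 CPM in siNC 1, 2 and 3, against 22.5, 19.6 and 20.7 CPM in siPiezo1. As for Entpd1, siNC 2 lay with the siPiezo1 libraries and away from siNC 1 and 3. The log2 fold change was 0.41 ± 0.22 with all 6 libraries (SE, adjusted p = 0.978 with edgeR) and 0.68 ± 0.12 without siNC 2 (SE, adjusted p = 0.045 with edgeR). The adjusted p without siNC 2 was 1.59e-05 with DESeq2 and 0.0785 with limma-voom. The siPiezo1 mean was 161% of the mean of siNC 1 and 3. The ratio of Adora2a to Entpd1 CPM, which is comparable between libraries but not as a ratio of molecules, was 0.171 and 0.183 in siNC 1 and 3, 0.669 in siNC 2, and 0.667, 0.509 and 0.928 in siPiezo1.

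Adora2b, the receptor with lower affinity for adenosine, was high in siNC 2 alone. Its level was 6.45, 21.1 and 5.83 CPM in siNC, against 5.45, 7 and 5.1 CPM in siPiezo1. That library held 3.43 times the mean of siNC 1 and 3. The log2 fold change of -0.93 ± 0.51 (SE) became -0.07 ± 0.21 (SE) without siNC 2, and neither passed edgeR (adjusted p = 0.978 and 0.942). The siNC 2 level of Adora2b lay beside the raised neutrophil and platelet marker sums of that library; their part in it was not tested.

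**Figure D2:**
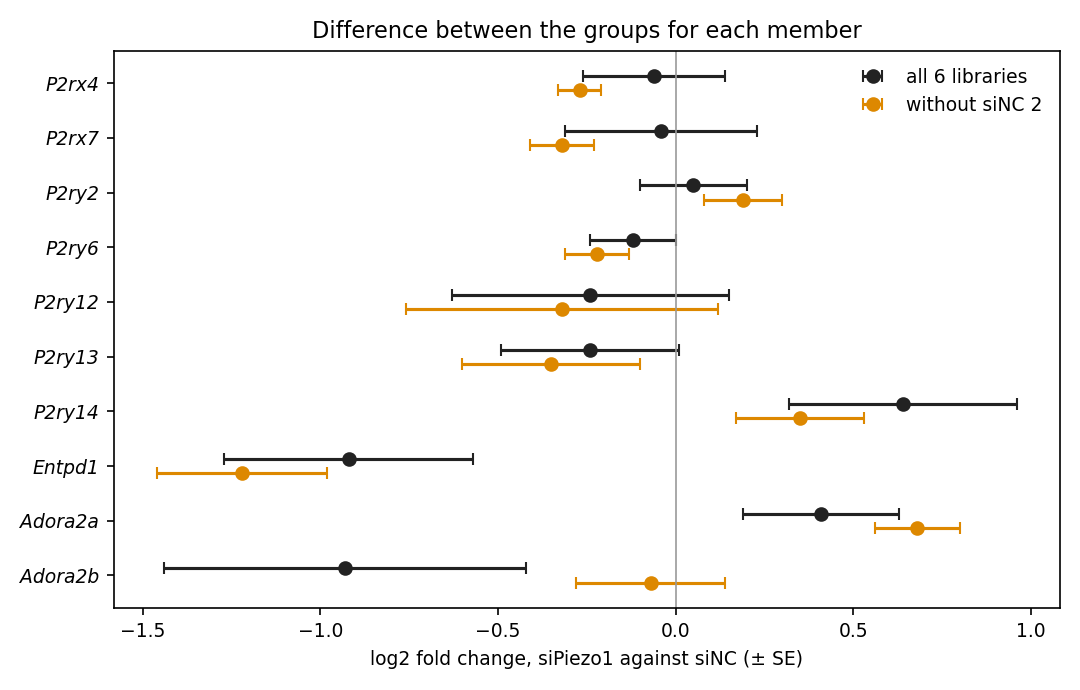
Log2 fold change of siPiezo1 against siNC (horizontal axis) for each gene from edgeR, with all 6 libraries (black) and without siNC 2 (orange); bars are ± 1 SE. Entpd1 lies at -0.92 and -1.22, Adora2a at 0.41 and 0.68, and Adora2b moves from -0.93 to -0.07.

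The ATP-gated channels differed little between the groups when all libraries were used. P2rx4, a channel that opens at low ATP and sits largely in lysosomes, stood at 254, 158 and 276 CPM in siNC 1, 2 and 3, against 213, 227 and 218 CPM in siPiezo1. P2rx7 stood at 75.9, 34 and 64.7 CPM in siNC, against 53.5, 57.6 and 58.4 CPM in siPiezo1. For both genes siNC 2 was the lowest of the 6 libraries, siNC 1 and 3 were the highest, and the siPiezo1 libraries lay close together between them. Log2 fold changes were -0.06 ± 0.20 for P2rx4 and -0.04 ± 0.27 for P2rx7 (SE). Without siNC 2 it was -0.27 ± 0.06 for P2rx4 and -0.32 ± 0.09 for P2rx7 (SE), not past edgeR's threshold (adjusted p = 0.0853 and 0.145) and past that of DESeq2 (adjusted p = 0.00402 and 0.0469). The sign for P2rx7 turned with limma-voom on all 6 libraries (0.05) and with the replicate block (0.03).

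The Gq-coupled nucleotide receptors varied little between libraries. P2ry2, the receptor for ATP and UTP, stood at 20.2, 27.3 and 21.4 CPM in siNC, against 22.5, 22.8 and 26.1 CPM in siPiezo1. P2ry6, the receptor for UDP, stood at 76.9, 63 and 81.7 CPM in siNC, against 68.5, 73.9 and 62.1 CPM in siPiezo1. Again siNC 2 lay outside the other controls, above them for P2ry2 and below them for P2ry6. The log2 fold changes were 0.05 ± 0.15 for P2ry2 and -0.12 ± 0.12 for P2ry6 (SE), and 0.19 ± 0.11 and -0.22 ± 0.09 without siNC 2 (SE). Neither passed any of the 3 tools, with or without that library.

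The Gi-coupled receptors P2ry12, P2ry13 and P2ry14 lie together on chromosome 3 of the mouse, inside Med12l, which is read from the opposite strand. Their exons share 9 bases (P2ry12) or 0 bases (P2ry13 and P2ry14) with exons of Med12l in GENCODE M21, and Med12l itself stood at 1.67 to 3.92 CPM. P2ry14, the receptor for UDP-glucose and other UDP-sugars, stood at 21.6, 12.3 and 31 CPM in siNC, against 37.6, 28.3 and 35.1 CPM in siPiezo1. It was lowest in siNC 2, and siNC 3 overlapped the siPiezo1 range. Its log2 fold change of 0.64 ± 0.32 (SE) did not pass the threshold (adjusted p = 0.978 with edgeR); without siNC 2 it was 0.35 ± 0.18 (SE, adjusted p = 0.465 with edgeR).

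The ADP receptors of that locus were low. P2ry13 stood at 7.72, 5.78 and 7.04 CPM in siNC, against 6.47, 6.88 and 4.08 CPM in siPiezo1. P2ry12, a marker of platelets and microglia, stood at 1.78, 1.42 and 1.57 CPM in siNC, against 1.12, 2.02 and 0.882 CPM in siPiezo1, which is about 15.9 to 40.8 fragments a library. In siNC 2, 7 of 8 platelet and megakaryocyte markers were highest, and that library was the highest or lowest of the 6 for 55.9% of all genes. How the P2ry12 level, with so few fragments, relates to these markers was not tested. Log2 fold changes were -0.24 ± 0.25 for P2ry13 and -0.24 ± 0.39 for P2ry12 (SE), neither past the threshold of edgeR, and -0.35 ± 0.25 and -0.32 ± 0.44 (SE) without siNC 2. Leaving out siPiezo1 2 gave -0.67 for P2ry12, and leaving out siPiezo1 3 gave -0.02 for P2ry12 and -0.04 for P2ry13. At this depth the SE of P2ry12 leaves room for sizeable differences in both directions. On CPM values, a two-sided exact permutation test gave p = 0.2 for P2ry14 and p = 0.3 to 1 for the other 9 genes; 3 against 3 libraries cannot go below 0.1.

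Levels of different genes were compared per kb of exon, since longer transcripts give more counts. P2rx4 was highest, with a mean over the 6 libraries of 31.9 CPM per kb (22.5 to 39.3), followed by P2ry6 with 24.6 CPM per kb (21.5 to 28.3). Their ranges overlapped each other and did not overlap that of the next gene. P2rx7 followed with 9.61 CPM per kb, then Entpd1 with 8.17, Adora2a with 6.00, P2ry2 with 5.95 and Adora2b with 4.6 CPM per kb. From P2rx7 to P2ry14 each gene's range overlapped that of the next, so neighbours in this order were not separated by the spread over libraries. P2ry13 and P2ry14 each had 2.50 CPM per kb, and P2ry12 was lowest with 0.575 CPM per kb (0.346 to 0.793), apart from all others. With the longest transcript as the length, P2ry2 moved ahead of Adora2a and P2ry14 ahead of P2ry13, and P2rx4, P2ry6, P2rx7 and Entpd1 kept the first 4 places. Entpd1 had a mean of 10.7 CPM per kb in siNC and 5.65 CPM per kb in siPiezo1.

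**Figure D3:**
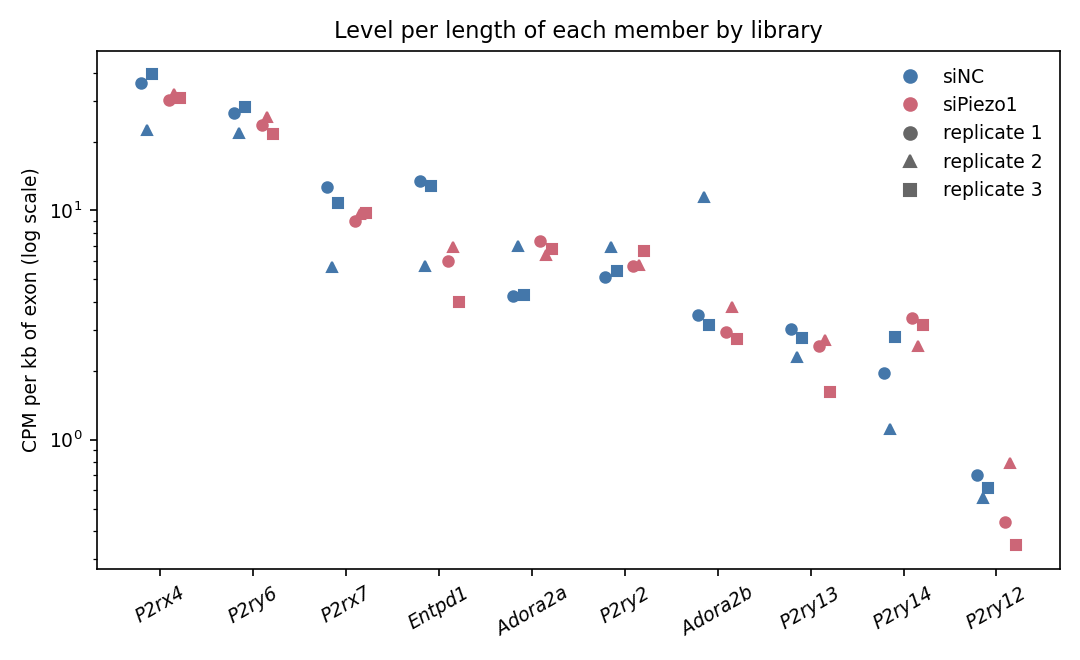
CPM per kb of exon (vertical axis, log scale) of the 10 genes, ordered by their mean over 6 libraries. Points are libraries, blue for siNC and red for siPiezo1, with symbols for the replicate number; P2rx4 and P2ry6 lie above 20 CPM per kb in every library and P2ry12 below 1.

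The other genes of the pathway were described from 6 lists with 110 genes, of which 91 could be tested. With all 6 libraries 0 passed edgeR in either direction, DESeq2 called 2 lower (Ada and Pde2a, against 0.263% of all genes called lower), limma-voom called 0, and 6 were at an unadjusted p under 0.05 with edgeR, against 4.93% of all genes. Log2 fold changes were above 0 for 36 and below 0 for 55, with a median of -0.04. The groups did not overlap for 12 of the 91, against 11.9% of all genes. Without siNC 2 edgeR called 2 of 92 higher (Acpp and Bst1) and 2 lower (Pde2a and Ttyh3), against 0.645% of all genes called higher and 0.45% called lower. The sign of the log2 fold change turned for 26 of the 91 when siNC 2 was left out, against 23.6% of all genes.

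Among 14 other receptors, 7 passed the filter on low counts, and P2ry4 and Adora1 were at 0 counts in all libraries. The ADP receptor P2ry1 stood at 7.51, 14.6 and 5.64 CPM in siNC and 7.28 to 10.7 CPM in siPiezo1. P2rx1, an ATP-gated channel of platelets and granulocytes, stood at 7.36 CPM in siNC 2 and at 0.852 to 2 CPM elsewhere, and Gpr35 at 4.84 CPM against 0.523 to 1.4. Adora3, another adenosine receptor, stood at 1.66 to 3.91 CPM, with a log2 fold change of 0.52 ± 0.36 (SE) with all libraries and 0.90 ± 0.31 (SE), with no overlap of the groups, without siNC 2. With or without siNC 2, 0 of the 7 passed edgeR; at an unadjusted p under 0.05 there were 0 with all libraries, against 4.93% of all genes, and 3 without siNC 2, against 14.3%, and DESeq2 and limma-voom called 0 with all libraries.

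Of 27 other enzymes and transporters that handle nucleotides and adenosine, 20 were tested, with 11 above 0 and 9 below and a median of 0.07. Bst1, an ectoenzyme that forms cyclic ADP-ribose, stood at 211, 380 and 236 CPM in siNC, against 325, 321 and 372 CPM in siPiezo1. Acpp, a phosphatase that can cut extracellular AMP, stood at 11.2, 77.8 and 10.9 CPM in siNC, against 21, 16.6 and 21.8 CPM in siPiezo1. Both were highest in siNC 2, and siNC 1 and 3 were the lowest 2 of the 6 libraries. Without siNC 2 the log2 fold change was 0.60 ± 0.08 for Bst1 and 0.84 ± 0.15 for Acpp (SE, adjusted p = 0.0188 and 0.0484 with edgeR); with all libraries that of Acpp was -0.75 ± 0.77 (SE) and that of Bst1 0.30 ± 0.22 (SE). Enpp4 and Ampd3 did not overlap between the groups and had log2 fold changes of 0.21 ± 0.09 and 0.17 ± 0.09 (SE), not past the threshold.

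For ATP release, 13 of 17 genes were tested, with 6 above 0, 7 below and a median of -0.08. Panx1, the pannexin through which macrophages release ATP, stood at 81.7, 68.1 and 76.3 CPM in siNC, against 83.5, 70.8 and 84.8 CPM in siPiezo1. Gja1, which encodes connexin 43, stood at 258 CPM in siNC 2 and at 14.9 to 36.4 CPM in the other 5 libraries. Its log2 fold change was -1.85 ± 1.11 (SE) with all libraries and 0.75 ± 0.28 (SE) without siNC 2. Slc17a9, the vesicular nucleotide transporter, had -0.40 ± 0.28 (SE) with all libraries and -0.12 ± 0.22 (SE) without siNC 2, and Lrrc8d, a volume-regulated channel subunit, ran from 22 to 246 CPM with no separation of the groups. Ttyh3, an anion channel family gene, stood at 145, 80.4 and 147 CPM in siNC, against 95.6, 111 and 89.5 CPM in siPiezo1, and its log2 fold change was -0.33 ± 0.23 (SE, adjusted p = 0.978 with edgeR) with all libraries and -0.57 ± 0.09 (SE, adjusted p = 0.0333 with edgeR) without siNC 2.

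Of the 14 NLRP3 inflammasome genes, the pathway below P2rx7, all were tested, with 4 above 0, 10 below and a median of -0.10. Casp1, the caspase of the complex, stood at 99, 70.6 and 85.3 CPM in siNC, against 106, 99 and 91.2 CPM in siPiezo1. The cytokine genes Il1b and Il1a were high in siNC 2, at 292 and 159 CPM, against 16.8 to 30.3 CPM and 3.32 to 4.5 CPM in the other 5 libraries. P2rx7 was lowest in siNC 2, a library that was the highest or lowest of the 6 for 55.9% of all genes. A relation between P2rx7 and these cytokine genes was not tested. The log2 fold change of Il1b was -2.0 ± 1.10 (SE) with all libraries and 0.63 ± 0.12 (SE) without siNC 2. The adjusted p of Il1b without siNC 2 was 0.0578 with edgeR and 0.00028 with DESeq2. For Il1a the log2 fold change went from -3.73 ± 1.53 to 0.25 ± 0.23 (SE). Il1rn, the receptor antagonist, was also highest in siNC 2, at 143 CPM.

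Downstream of the P2Y receptors, 16 genes of Gq and phospholipase C signalling had a median of -0.01, with 7 above 0 and 9 below. Plcb4, a phospholipase C, stood at 9.66, 11 and 11.7 CPM in siNC, against 25.5, 13.4 and 16.1 CPM in siPiezo1, with no overlap and a log2 difference of 0.77 ± 0.25 (SE; edgeR's adjusted p, 0.978). Itpr1, a calcium release channel, had 0.24 ± 0.10 and Rgs2 0.22 ± 0.13 (SE), both without overlap. Without siPiezo1 1 the Plcb4 value was 0.45, and without siNC 2 that of Rgs2 was 0.09 ± 0.08 (SE). Plcb1, under 2 CPM throughout, had -1.0 ± 0.55 (SE) with all libraries and -0.43 ± 0.67 (SE) without siNC 2.

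Of 22 genes of Gi, Gs and cyclic AMP signalling, which lies below the Gi-coupled and adenosine receptors, 21 were tested, with 5 above 0, 16 below and a median of -0.05. Without siNC 2, 11 were above 0 and the median was 0.03. Pde2a, a phosphodiesterase that degrades cyclic AMP and cyclic GMP, had the lowest edgeR p of the 6 lists with all 6 libraries. Its level was 26.8, 23.1 and 22.4 CPM in siNC, against 10.3, 11.4 and 14.8 CPM in siPiezo1, and siNC 2 lay with the other controls. Its log2 fold change was -0.99 ± 0.17 (SE), with an adjusted p of 0.732 with edgeR and 0.000492 with DESeq2, and without siNC 2 it was -1.02 ± 0.17 (SE, adjusted p = 0.0375 with edgeR). Another phosphodiesterase, Pde4b, stood at 50.8, 52 and 48.5 CPM in siNC, against 43.4, 38.8 and 44 CPM in siPiezo1, with a log2 difference of -0.26 ± 0.09 (SE; edgeR's adjusted p, 0.978). The adenylate cyclase Adcy3, at under 5 CPM, had -1.18 ± 0.43 and the kinase subunit Prkar2b 0.19 ± 0.09 (SE), neither past the threshold of edgeR. Without siNC 2, DESeq2 called Prkar2b (0.27 with edgeR and DESeq2, DESeq2 adjusted p = 0.0112) and edgeR did not (adjusted p = 0.134).

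**Figure D4:**
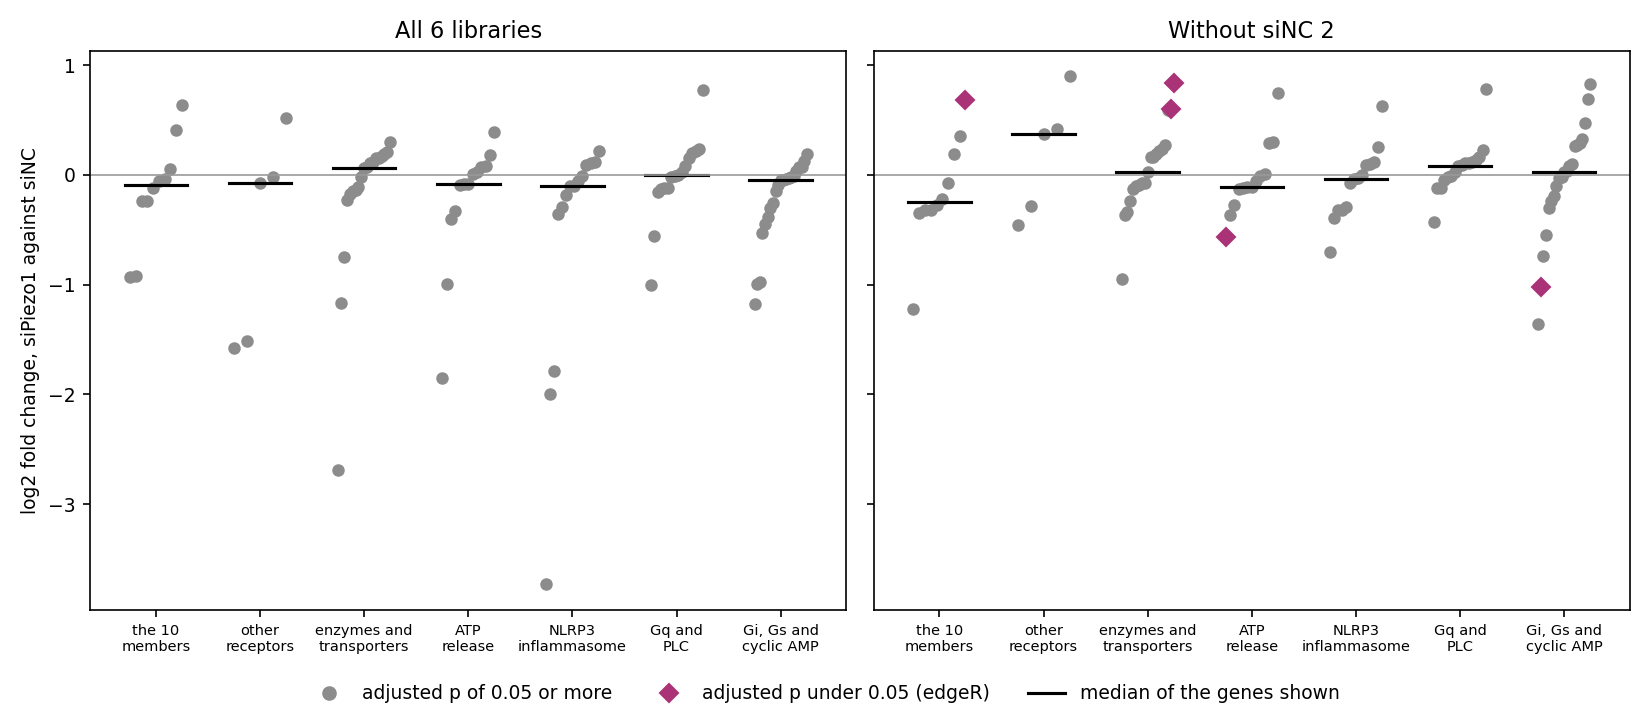
Log2 fold change of siPiezo1 against siNC (vertical axis) for the 10 genes and for tested genes of the 6 pathway lists that reached 1 CPM in a library, with all 6 libraries (left) and without siNC 2 (right). Diamonds mark genes past edgeR's threshold, of which there are 0 on the left and 5 on the right (Adora2a, Bst1, Acpp, Ttyh3 and Pde2a), and lines give medians of the genes shown.

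The genes whose pattern was most like a member were sought by Pearson correlation of log2(CPM + 1) over the 6 libraries, among 8355 named genes with a mean of at least 10 CPM. For Entpd1 these were Brd3 (r = 0.990), Cmtm6 (0.987) and Stab1 (0.987), and Stab1 stood at 622, 422 and 664 CPM in siNC, against 441, 470 and 383 CPM in siPiezo1. For Adora2a they included Kansl2 (r = 0.995) and the pseudogene Rpsa-ps2 (0.994), and for P2ry14 they were Dirc2 (0.999), Akr1c13 (0.996) and Cd300c2 (0.994). Such values describe 6 points that share the position of siNC 2. Among the 10 genes themselves, P2rx4 and P2rx7 had the highest correlation (0.94), P2ry6 and Entpd1 had 0.91, and Entpd1 and Adora2a had -0.92. The lowest was -0.93, between P2ry14 and Adora2b.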

How the data were processed

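RNA from 6 libraries, 3 siNC and 3 siPiezo1, was placed in groups by title, with 0 value columns unmapped. The deposited values are estimated counts per Ensembl gene, whole and unscaled, and 1 fragment gave 3.67 to 3.74 of them. Per the submitters' processing notes, cutadapt 1.9, HISAT2 2.0.4, StringTie 1.3.4d, DESeq2 and edgeR were used with build GRCm39; for their roles, the annotation and strand use: not given in the sources used here. If strand was ignored, reads of antisense genes could not be told apart. Per the labels' protocols, libraries were poly(A)-selected and made with dUTP. Symbols came from GENCODE M21 (GRCm38; 55141 of 55401 identifiers matched), which also gave exon lengths. No other gene's transcript matched a member at 95% identity over 200 bases.

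Genes were kept by filterByExpr (15959; 16442 without siNC 2), scaled by TMM and tested over all genes with edgeR 4.0.16's robust quasi-likelihood test (R 4.3.3), with group as the only term and Benjamini-Hochberg adjustment. Fold changes (log2) compare siPiezo1 with siNC, and SE is their size divided by the square root of F. DESeq2 1.42.0, limma-voom (limma 3.58.1) and the alternatives of the closing section were run beside it, and the test was checked on simulated counts. The design assumed counts or estimated counts. The members and gene lists were chosen with earlier results of these data known. Named genes are the 10 members, up to 4 genes of each pathway list with the smallest p, genes past the threshold with or without siNC 2, and 3 genes most like each of 3 members, of which 1 is not reported here. Panx1, P2ry1, Med12l, Mertk, Csf1r, Cd68, Lyz2, the genes at 0 counts and the motifs searched were chosen after values were seen. The same holds for Cd14, Itgam, Spi1, Ptprc and the neutrophil, T cell and B cell markers named.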

Additional observations from a re-analysis of the deposited data

How the results depend on the processing

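The alternatives were other scalings, filters and tools, limma-voom with library weights, counts divided by 4, the replicate number as a block and each library left out. DESeq2 and limma-voom without siNC 2 were added after seeing the data. Of the 10 members, 0 were called by each alternative that kept all 6 libraries, the replicate block included. With edgeR 0 to 1 were called when 1 library was left out, and without siNC 2 DESeq2 called 4 and limma-voom 1. Of the 91 other pathway genes tested DESeq2 called 2, against 0.551% of all genes, and the leave-one-out fits called 0 to 4. Without siNC 2 DESeq2 called 12 of 92 (7 higher and 5 lower), against 6.51% of all genes. There limma-voom called 1 of 92, against 0.712%. Over all genes the count was 1, and it was 0 with library totals alone or the block, 88 with DESeq2, 4 with library weights and 0 to 180 with 1 library left out; without siNC 2 it was 1071 with DESeq2 and 117 with limma-voom. The cause was not tested. Same-numbered libraries deviated from their group means with correlations of 0.0347, -0.0824 and -0.175. Each siNC library correlated best with an siPiezo1 library of another number, and the highest value was 0.189. Deviations from a group mean of so few libraries are tied to each other, so these values cannot decide whether the numbers pair the libraries.

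Some signs turned. With 1 library left out, log2 fold changes ranged from -0.27 to 0.09 for P2rx4, -0.32 to 0.19 for P2rx7, -0.04 to 0.19 for P2ry2, -1.17 to 0.84 for Acpp, -2.36 to 0.75 for Gja1, -4.28 to 0.25 for Il1a and -2.51 to 0.63 for Il1b. With library weights they were 0.62 for Acpp, 0.41 for Gja1 and 0.34 for Il1b. The sign of P2rx7 also turned with limma-voom (0.05) and the block (0.03), and without siNC 2 DESeq2 and limma-voom gave 0.84 and 0.82 for Acpp, 0.75 and 0.70 for Gja1, 0.25 and 0.25 for Il1a, and 0.63 and 0.62 for Il1b. The number of libraries and P2ry12's few fragments limit the precision.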
